A study of Mus musculus with 62 samples.

Results

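The comparison described here sets the soleus of mice carrying melanoma cells that bring on cachexia against the soleus of mock-injected mice, 4 weeks after injection. It holds 10 of the 62 samples of the series, 5 of group CAC (cachectic melanoma cells) and 5 of group Con (mock injection), chosen by the treatment and time in their labels. The 5 samples of group NCAC (melanoma cells that do not bring on cachexia) at the same week, and the CAC and Con samples of 2 and 6 weeks, serve only to show where the 4-week comparison differs. All mice were female and 2 months old by their labels, and the labels name no transgene or drug in any group. The strain cannot be stated, since the sample entries name C57BL6/J mice and the design text NCI Ath/nude mice, and a protocol text speaks of LLC cells. RNA abundance was measured as TPM (transcript abundance scaled to the same total in every sample) from stranded mRNA libraries. The read depth of the samples is unknown, because TPM do not keep it. The labels call the samples of a group biological replicates.

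The soleus is a postural hindlimb muscle of slow, oxidative fibres, and cachexia is the loss of muscle and fat that accompanies some tumours. Cytokines of the interleukin-6 family bind receptors that share the subunit gp130 (gene Il6st). Kinases of the JAK family then phosphorylate STAT3, which enters the nucleus, switches on its own gene and that of its inhibitor SOCS3, and in liver and other tissues drives acute phase proteins that are secreted into the blood. In wasting muscle this pathway is known beside a second programme, in which FoxO factors and glucocorticoids raise the ubiquitin ligases MuRF1 (Trim63) and atrogin-1 (Fbxo32).

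The promoters of 4 genes that were higher in CAC are shown because each holds a letter pattern that STAT factors are known to bind, TTCNNNGAA. The windows are RefSeq promoters of build GRCm38.p6, from 250 bases before to 50 bases after the annotated start, written 5′ to 3′ on the strand of the gene, with the pattern in capitals. They lie at chr11:117969317-117969616, minus strand (Socs3), chr10:80101138-80101437, minus strand (Sbno2), chr15:78305672-78305971, minus strand (Csf2rb2), and chr13:56296502-56296801, minus strand (Cxcl14).
Socs3: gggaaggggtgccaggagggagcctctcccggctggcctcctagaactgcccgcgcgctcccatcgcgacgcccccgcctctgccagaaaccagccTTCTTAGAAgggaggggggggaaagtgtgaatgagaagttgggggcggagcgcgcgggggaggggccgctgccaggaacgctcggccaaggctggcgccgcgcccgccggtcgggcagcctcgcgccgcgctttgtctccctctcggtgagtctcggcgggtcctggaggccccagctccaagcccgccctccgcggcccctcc
Sbno2: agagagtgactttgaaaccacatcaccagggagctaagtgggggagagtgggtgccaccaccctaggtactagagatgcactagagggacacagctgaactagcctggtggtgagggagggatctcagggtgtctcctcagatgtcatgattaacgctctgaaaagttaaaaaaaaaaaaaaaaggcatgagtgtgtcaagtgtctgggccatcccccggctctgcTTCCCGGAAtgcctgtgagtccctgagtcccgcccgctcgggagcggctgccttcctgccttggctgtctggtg
Csf2rb2: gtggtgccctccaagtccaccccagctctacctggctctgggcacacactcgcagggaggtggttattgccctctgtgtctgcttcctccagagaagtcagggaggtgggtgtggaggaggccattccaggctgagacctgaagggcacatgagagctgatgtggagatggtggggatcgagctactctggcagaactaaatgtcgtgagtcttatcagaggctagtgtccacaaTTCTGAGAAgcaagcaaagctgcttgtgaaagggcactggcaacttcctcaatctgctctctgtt
Cxcl14: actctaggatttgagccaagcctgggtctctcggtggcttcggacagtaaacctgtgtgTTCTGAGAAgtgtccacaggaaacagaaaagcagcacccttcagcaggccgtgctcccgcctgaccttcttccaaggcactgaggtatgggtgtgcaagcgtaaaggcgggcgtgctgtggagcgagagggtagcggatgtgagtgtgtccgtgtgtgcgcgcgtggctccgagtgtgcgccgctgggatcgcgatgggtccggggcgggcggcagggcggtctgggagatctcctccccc
The pattern begins at position -154 from the start in Socs3, -24 in Sbno2, -15 in Csf2rb2 and -191 in Cxcl14. These were the 4 genes with the pattern among 22 that had a window, out of the 27 genes that were among the largest rises or a named panel and passed the test. Read on both strands, it stood in 17.3% of the 81 windows of all genes higher in CAC, in 6.94% of the 12893 windows of tested genes and in 8.3% of all 32851 windows of the table. The C/EBP pattern TTGCNNAA stood in 6.17% of the windows of higher genes and 8.7% of those of tested genes. The glucocorticoid receptor pattern ACANNNTGT stood in 4.94% and 4.38% of them. These are letter matches, not measured binding, and windows of one gene can overlap. Where a gene had several windows, only a window with the pattern was shown. The Socs3 and Sbno2 windows lie wholly inside the genes as annotated in GENCODE M21. There the genes begin, on the minus strand, at 117970047 (Socs3) and 80105571 (Sbno2).

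At 4 weeks the CAC soleus held more RNA for the transcription factor STAT3 and its inhibitor SOCS3, and more for 5 of 20 acute phase genes and 5 of 21 complement genes, while no gene of the sarcomere, fibre type and atrophy ligase lists passed the test. Of 13529 tested genes, 79 were higher in CAC (0.584% of those tested) and 5 were lower (0.037%), by limma over all 12 groups of the series with Benjamini-Hochberg adjusted p under 0.05. The shares of 0.584% and 0.037% are those to set beside the counts of calls in each list below. The lists were chosen with earlier results of these data known. At an unadjusted p under 0.05 there were 1193 higher and 254 lower genes. Fold changes are differences of mean log2(TPM + 1) between CAC and Con, which understate the change of weakly expressed genes, and their median over all tested genes was 0.058. At least a 2-fold difference was seen in 32 of the 79 higher genes. In 67 of the 79 every CAC sample lay above every Con sample, as in 447 of all tested genes (3.3%). In bulk tissue, a change in the number of cells of a type and a change in RNA per cell cannot be told apart.

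**Figure D1:**
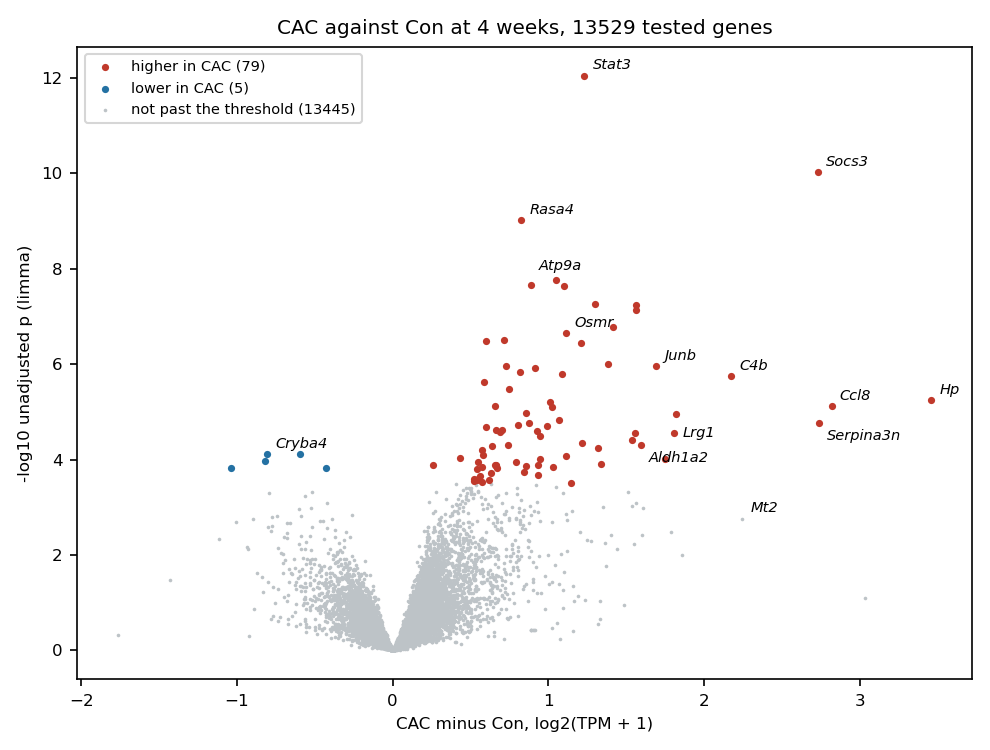
Difference of mean log2(TPM + 1), CAC minus Con at 4 weeks (horizontal axis), against -log10 of the unadjusted limma p (vertical axis), 1 point per tested gene. Red points are the 79 genes higher in CAC, blue points the 5 lower and grey points the rest. Stat3 and Socs3 stand at the top, and Mt2 lies among the grey points despite a difference of 2.25.

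The CAC samples did not respond alike, and this touches every count above. CAC replicates 2 and 4 were the 2 highest CAC samples for 72 of the 79 higher genes, against 39% of all tested genes. The coefficient of variation over the 79 genes had a median of 34.1% in CAC and 13.8% in Con. Over all tested genes it was 15.7% in CAC and 10.2% in Con. Without these 2 samples (an alternative chosen after the data were seen), 5 genes passed, among them Stat3, Socs3, Rasa4 and Atp9a. All 79 higher genes kept a positive difference and all 5 lower genes a negative one. Leaving out 1 sample at a time gave 26 (without CAC replicate 4) to 185 (without CAC replicate 5) higher genes, and 25 of the 79 passed in each of those 10 fits. A fit of the 2 groups alone called 19 higher and 2 lower genes, 14 of them among the 79. Its adjusted p (limma) was 0.0288 for Stat3, 0.00608 for Socs3, 0.0288 for Rasa4 and 0.0288 for Atp9a. It was 0.0616 for Sbno2, 0.141 for Osmr, 0.154 for Hp and 0.193 for Serpina3n. Unless another fit is named, the SE and adjusted p of single genes below rest on the spread shared by all 12 groups. Samples of CAC correlated with their own group at a mean r of 0.9795 to 0.9851 and those of Con at 0.9881 to 0.9905, over genes.

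Markers of slow muscle were abundant in every sample. Summed TPM of 8 slow muscle genes was 38570 to 47310 in CAC and 36630 to 47910 in Con. Myh7, the slow myosin heavy chain, stood at 4247 to 6285 TPM in CAC and 4155 to 5773 TPM in Con. The 10 marker genes of pigment cells, 3 of them tested and none called, summed to 8.699 to 10.79 TPM in CAC and 8.663 to 11.81 TPM in Con. The pigment enzyme gene Tyr was listed at 0 in 4 of 5 CAC samples and in all Con samples. The part of tumour RNA in the results was not tested.

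Among the receptors of the interleukin-6 family and their signalling kinases and factors, 2 of 14 tested genes were higher in CAC and none lower, with a median difference of -0.01. These 2 were Stat3 and Osmr. Stat3 lies on chromosome 11 (100885098 to 100939540, GENCODE M21, build mm10). Its abundance in CAC replicates 1 to 5 was 40.3, 58.2, 51.0, 75.6 and 35.8 TPM, against 20.3, 20.6, 20.3, 22.5 and 21.1 TPM in Con replicates 1 to 5. The lowest CAC sample lay well above the highest Con sample, and CAC varied far more than Con. The difference was 1.23 (SE 0.13, adjusted p = 1.21e-08, limma), and without CAC replicates 2 and 4 it was 0.97 (adjusted p = 3.6e-05). Both p use the spread shared by all groups of the series, and with the 2 groups fitted alone the adjusted p was 0.0288.

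Osmr, the receptor subunit for oncostatin M, had 5.13, 14.3, 6.11, 11.3 and 3.73 TPM in CAC, against 2.57, 2.66, 3.01, 2.84 and 3.07 TPM in Con. The groups did not overlap, but CAC replicate 5 came close to Con. It rose by 1.11 (SE 0.19), and without CAC replicates 2 and 4 the difference of 0.63 did not pass (adjusted p = 0.43). The shared subunit Il6st stood at 59.2 to 82.1 TPM in CAC and 53.01 to 57.8 TPM in Con, without overlap, but missed the threshold (0.32, SE 0.11, adjusted p = 0.238). The interleukin-6 receptor Il6ra had 3.55, 13.2, 4.98, 12.3 and 2.18 TPM in CAC and 2.48, 3.64, 6.45, 6.48 and 8.49 TPM in Con, and the Con range lay within the CAC range (adjusted p = 0.876). Il6, the ligand gene itself, was below the filter for testing, at 0.107 to 0.423 TPM in CAC and 0.044 to 0.148 TPM in Con. Jak1 and Jak2, the kinases on these receptors, differed by 0.04 (SE 0.10) and -0.11 (SE 0.14). Jak3, a kinase better known from lymphocytes and outside the list, rose by 0.86 (SE 0.21, adjusted p = 0.0277), with 11.0 to 16.4 TPM in CAC against 5.36 to 9.45 TPM in Con. It passed in 4 of the 10 fits that leave out 1 sample. By limma it did not pass with the 2 groups fitted alone (adjusted p = 0.0616) or after median-of-ratios rescaling (adjusted p = 0.0521).

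Of 20 known STAT3 target and feedback genes, 5 were higher and none lower, with a median difference of 0.69. Socs3 (chromosome 11, 117966079 to 117970047), which blocks JAK activity and is induced by STAT3, had 16.5, 28.9, 12.5, 32.4 and 20.2 TPM in CAC. Con held 3.27, 2.72, 2.87, 1.79 and 1.27 TPM. Every CAC sample was several times above every Con sample, and CAC replicate 5, lowest of its group for Stat3, was the third highest here. Socs3 rose by 2.73 (SE 0.34, adjusted p = 6.29e-07), and by 2.38 without CAC replicates 2 and 4 (adjusted p = 8.3e-04).

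The other 4 were Bcl3, Junb, Sbno2 and Il1r1. Sbno2, a corepressor in cytokine signalling, had 14.7, 24.8, 18.8, 28.8 and 14.4 TPM in CAC and 10.4, 9.93, 8.31, 7.73 and 7.05 TPM in Con. It rose by 1.10 (SE 0.17, adjusted p = 5.26e-05). Bcl3, a nuclear partner of NF-kB, had 2.98 to 9.06 TPM in CAC against 0.974 to 1.89 TPM in Con. Il1r1, the interleukin-1 receptor, had 4.11 to 12.1 TPM in CAC against 2.49 to 3.44 TPM in Con. Both separated the groups completely, with CAC replicates 2 and 4 on top. Pim1, a survival kinase gene, also separated the groups, with 6.92 to 12.9 TPM in CAC against 3.32 to 6.79 TPM in Con, but missed the threshold (adjusted p = 0.105). Socs3 had the largest difference of the list, and Bcl6, a repressor, the lowest, at -0.36 (adjusted p = 0.648).

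Of 20 acute phase genes, which encode proteins secreted in inflammation, 5 were higher (Hp, Serpina3n, Lrg1, C3 and Itih4) and none lower, with a median difference of 1.06. Hp, haptoglobin, which binds free haemoglobin, had 64.4, 517, 64.8, 768 and 17.9 TPM in CAC, against 9.48, 5.17, 14.6, 9.12 and 18.8 TPM in Con. CAC replicates 2 and 4 were far above the rest and CAC replicate 5 lay below the highest Con sample. It rose by 3.46 (SE 0.69, adjusted p = 0.00315), and without replicates 2 and 4 its difference of 1.91 did not pass (adjusted p = 1). Serpina3n, a protease inhibitor, had 27.3, 273, 26.1, 266 and 10.4 TPM in CAC and 5.25, 4.33, 8.50, 11.5 and 11.3 TPM in Con, and CAC replicates 2 and 4 were again far above the rest. It rose by 2.74 (SE 0.58, adjusted p = 0.00708). Its gene cluster holds close copies, so its reads may be shared with them.

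Lrg1, a secreted glycoprotein, had 31.8, 93.7, 36.0, 111 and 25.4 TPM in CAC and 13.3, 10.7, 13.5, 14.3 and 16.5 TPM in Con, without overlap. It rose by 1.81 (SE 0.39, adjusted p = 0.00903). Itih4, a serum protein made mainly by liver, had 0.376, 3.69, 2.52, 2.12 and 0.335 TPM in CAC and 0.032 to 0.168 TPM in Con, and it passed in 2 of the 10 fits that leave out a sample. Lcn2, lipocalin-2, which binds bacterial iron carriers, missed the threshold (1.41, SE 0.46, adjusted p = 0.187). It stood at 1.25, 12.8, 1.24, 7.51 and 0.442 TPM in CAC and at 0.232 to 0.590 TPM in Con. Lcn2 passed without CAC replicate 5 (adjusted p = 0.0413) and without week 8 (adjusted p = 0.0175). Saa3, a serum amyloid gene, differed by -0.13 (adjusted p = 0.978), close to the lowest of the list, Hamp, the iron hormone hepcidin, at -0.14.

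Liver markers moved in a few samples and are given because liver makes many of these proteins. Of 10 hepatocyte genes 7 were tested and none passed, with a median difference of 0.80. The 10 genes summed to 101.7, 136.5, 129, 129.9 and 21.05 TPM in CAC and 28.12 to 45.37 TPM in Con. Alb, serum albumin, had 0.511, 17.3, 45.1, 0.285 and 0.194 TPM in CAC and 0.153, 7.32, 0.683, 0.175 and 0.433 TPM in Con. In CAC replicates 1 and 4, Alb, Ahsg, Apoa1, Apoa2 and Apoc3 were each below 1 TPM. Nearly all of the sum in these 2 samples came from other genes of the list, so the sum did not follow Alb. CAC replicate 3 had the most Alb and CAC replicate 4, with the most Hp, had 0.285 TPM of it. CAC replicates 2 and 3 held the most Itih4 and the most Alb. The part of liver RNA in the acute phase and complement genes was not tested.

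**Figure D2:**
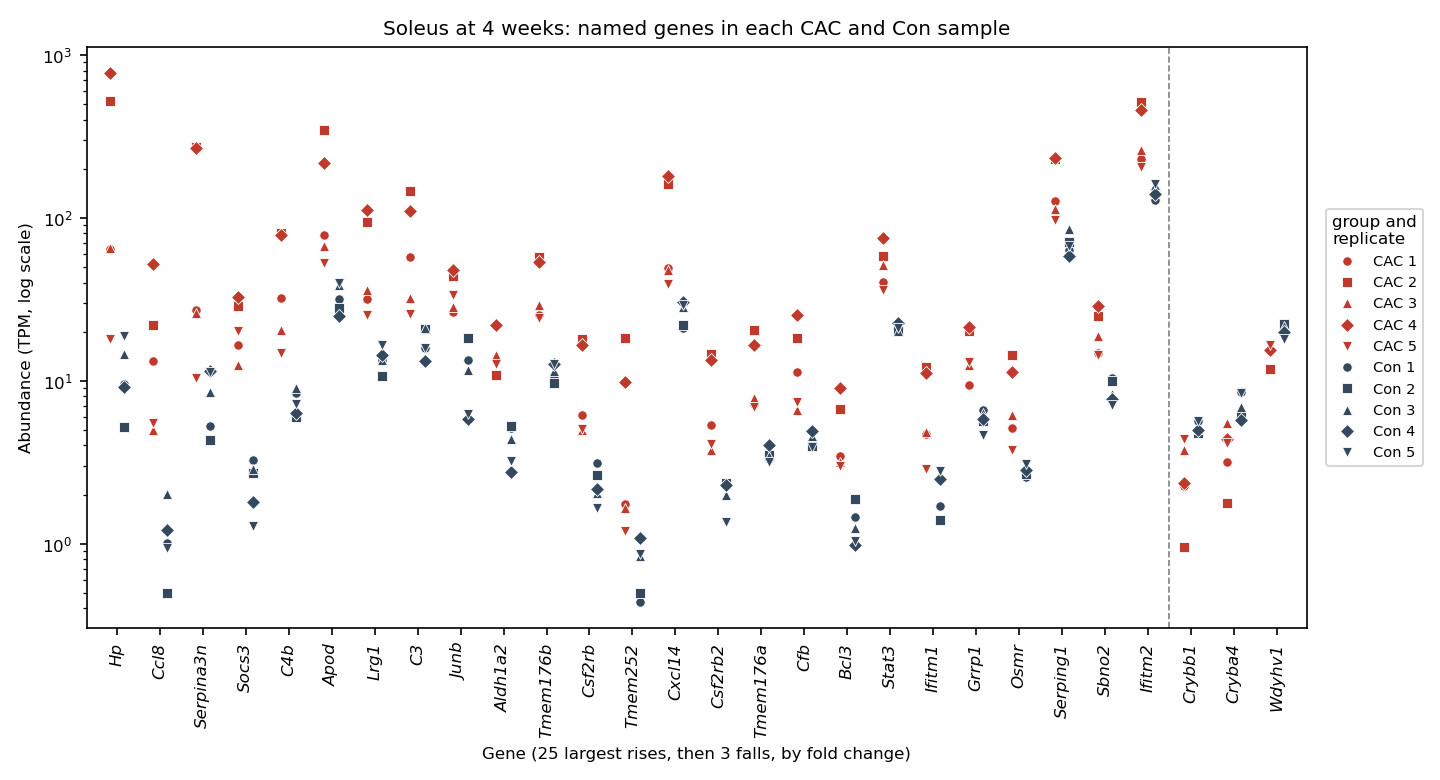
Abundance in TPM (vertical log axis) of the 25 genes with the largest rises and the 3 with the largest falls at 4 weeks, 1 point per sample, with CAC in red to the left of Con in dark blue and a marker shape per replicate. CAC replicates 2 (squares) and 4 (diamonds) lie on top for most rises, as for Hp at 517 and 768 TPM.

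Complement, the cascade of blood proteins that marks and lyses targets, had 5 of 21 tested genes higher (C3, also counted above, C4b, Cfb, Serping1 and Clu) and none lower, with a median difference of 0.65. In 9 of the 21 every CAC sample lay above every Con sample, as in 447 of the 13529 tested genes (3.3%). C4b, a component of the classical pathway, had 32.1, 80.9, 20.4, 78.0 and 14.8 TPM in CAC and 8.37, 5.99, 8.95, 6.36 and 7.15 TPM in Con. It rose by 2.17 (SE 0.41, adjusted p = 0.00115) and passed in each of the 10 fits that leave out 1 sample. It did not pass without CAC replicates 2 and 4 together (1.43, adjusted p = 0.691) or with the 2 groups fitted alone (adjusted p = 0.0873). Its near-identical copy C4a, at 0.724 to 3.07 TPM in CAC and 0.322 to 0.582 TPM in Con, shares reads with it, so the split between them is uncertain.

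C3, the central component, had 57.7, 146, 32.0, 109 and 25.6 TPM in CAC and 15.8, 20.8, 20.9, 13.3 and 16.0 TPM in Con. Cfb, of the alternative pathway, had 6.65 to 25.4 TPM in CAC against 3.93 to 4.92 TPM in Con. The inhibitors moved as well: Serping1, the C1 inhibitor, had 97.4 to 234 TPM in CAC against 58.5 to 84.9 TPM in Con, and Clu, clusterin, had 38.4 to 87.7 TPM in CAC against 23.4 to 26.8 TPM in Con. These 4 genes separated the groups without overlap. Their differences were 1.75 (C3), 1.32 (Cfb), 1.11 (Serping1) and 1.02 (Clu), and none passed without CAC replicates 2 and 4.

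Of 21 chemokine and cytokine genes, 2 were higher and none lower, with a median difference of 0.17. Ccl8, which attracts monocytes, had 13.2, 21.8, 5.00, 52.2 and 5.53 TPM in CAC, against 1.00, 0.496, 2.02, 1.204 and 0.940 TPM in Con. All CAC samples were above all Con samples, and the difference was 2.82 (SE 0.57). Cxcl14, a chemokine of epithelia, muscle and fat, had 49.0, 160, 47.9, 179 and 39.0 TPM in CAC and 21.1, 22.0, 28.1, 30.4 and 29.0 TPM in Con (1.53, SE 0.34, adjusted p = 0.012). The fractalkine gene Cx3cl1 had the lowest difference of this list, -0.33 (adjusted p = 0.627).

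Markers of blood-derived and other cells did not pass in any of 15 cell type lists, over 127 tested markers. Macrophage markers had a median difference of 0.46, and all 14 were positive. Their summed abundance was 223, 405, 210, 370 and 140.0 TPM in CAC and 143, 187, 226, 156 and 152 TPM in Con, so CAC replicates 2 and 4 were again the highest and CAC replicate 5 the lowest of all 10. C1qa, a complement subunit made by macrophages, stood at 21.1 to 69.99 TPM in CAC and 20.3 to 31.5 TPM in Con (adjusted p = 0.394). Neutrophil markers had 5 of 14 genes tested, with a median of 0.57 and sums of 6.644 to 22.3 TPM in CAC and 1.867 to 16.18 TPM in Con. All 5 tested members had positive differences, among them S100a9, a calcium-binding protein of myeloid cells, with 2.85 to 12.5 TPM in CAC and 0.786 to 9.54 TPM in Con. Of the granule protein genes below the filter, Mpo was listed at 0 in all CAC samples and in 4 of 5 Con samples, and Elane in 2 of 5 CAC samples and in 4 of 5 Con samples. Haemoglobin and other red cell genes had a median of 0.67 and summed to 1020 to 3384 TPM in CAC and 918 to 2343 TPM in Con. Adipocyte markers had a median of 0.27, with 10 of 12 positive, and summed to 5902 to 9133 TPM in CAC and 5352 to 8012 TPM in Con. Most of that sum was Car3 in every sample, at 4174 to 7244 TPM in CAC and 4367 to 6862 TPM in Con. Adipoq stood at 18.0 to 88.7 TPM in CAC and 23.8 to 58.4 TPM in Con. Over the adipocyte markers the sample medians were 0.55, 0.54, -0.45, 0.83 and -0.47 in CAC and -0.33 to 0.22 in Con. The medians were 0.19 for endothelial markers and 0.15 for fibro-adipogenic progenitor markers. The part of these cells in the immune genes above was not tested.

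Beyond the lists, 55 of the 79 higher genes belonged to none of the 50 lists. None of the 12 genes of the endothelial list passed. Csf2rb, the beta subunit shared by the receptors for GM-CSF, interleukin-3 and interleukin-5, rose by 1.56 (SE 0.25, adjusted p = 9.8e-05). Its relative Csf2rb2 rose by 1.42 (SE 0.23, adjusted p = 2.19e-04). Csf2rb had 6.18, 18.0, 4.97, 16.5 and 5.06 TPM in CAC and 3.13, 2.65, 2.06, 2.16 and 1.66 TPM in Con. Csf2rb and Csf2rb2 are close copies, and reads may be split between them. Ackr1, a decoy chemokine receptor of venule endothelium and red cells, had 11.6 to 31.2 TPM in CAC against 7.37 to 10.1 TPM in Con. Spns2, the sphingosine 1-phosphate exporter of endothelium, had 11.4 to 20.1 TPM in CAC against 8.14 to 9.36 TPM in Con. Entpd1 (CD39), which breaks down extracellular ATP, had 14.9 to 22.0 TPM in CAC against 9.30 to 11.9 TPM in Con. Ackr1, Spns2 and Entpd1 were chosen for mention after their values were seen.

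The rises that also passed without CAC replicates 2 and 4 included Atp9a and Rasa4, which are in none of the lists. Atp9a, a membrane lipid flippase, had 63.1, 83.0, 70.8, 74.0 and 46.0 TPM in CAC against 31.0, 29.3, 31.3, 32.3 and 33.8 TPM in Con. It rose by 1.05 (SE 0.16, adjusted p = 5.26e-05), and by 0.89 without CAC replicates 2 and 4 (adjusted p = 0.025). Rasa4, which switches off Ras, had 20.6, 26.9, 20.6, 28.4 and 21.0 TPM in CAC against 14.0, 14.2, 12.2, 12.9 and 10.6 TPM in Con. In Rasa4 all CAC samples were above all Con samples. Its difference was 0.82 (SE 0.11, adjusted p = 4.25e-06), and without CAC replicates 2 and 4 it was 0.66 (adjusted p = 0.0077).

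Aldh1a2, which makes retinoic acid, was higher in CAC with a different order of samples. It had 13.4, 10.8, 14.4, 21.9 and 12.6 TPM in CAC and 5.12, 5.24, 4.40, 2.76 and 3.21 TPM in Con, so that CAC replicate 2 was the lowest of its group (1.59, SE 0.36, adjusted p = 0.0144). Mcu, the pore of the mitochondrial calcium uniporter, rose by 0.66 (SE 0.13, adjusted p = 0.0038), with 23.6 to 30.9 TPM in CAC against 15.6 to 19.2 TPM in Con. Apod, a lipid carrier, had 77.9, 346, 67.3, 216 and 52.6 TPM in CAC against 24.8 to 39.6 TPM in Con, and it passed in 8 of the 10 fits that leave out a sample. Tmem176a and Tmem176b, a pair of membrane proteins of immune cells, rose by 1.39 (SE 0.25) and 1.56 (SE 0.25).

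Stress and inflammatory regulators had few calls each. Of 19 NF-kB genes 2 were higher (Bcl3 and Nfkbiz, a nuclear cofactor), with a median difference of 0.24. Of 22 AP-1 and immediate early genes 3 were higher (Junb, Btg2 and Ier3), with a median of 0.38. Junb, an AP-1 subunit, had 26.5, 43.7, 28.3, 47.8 and 33.7 TPM in CAC and 13.3, 18.4, 11.7, 5.80 and 6.21 TPM in Con, which did not overlap (1.69, SE 0.31, adjusted p = 8.63e-04). Btg2, which holds back cell division, had 62.01 to 98.4 TPM in CAC against 33.9 to 42.5 TPM in Con, and it passed in 4 of the 10 fits that leave out a sample. It was also the one call in the p53 list of 19 genes. The lowest difference among the immediate early genes was -0.10.

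The TNF receptor family had 1 call of 14, Tnfrsf1a, the main TNF receptor, with 47.5 to 77.2 TPM in CAC against 32.2 to 35.7 TPM in Con (0.75, SE 0.14, adjusted p = 0.00195). Eda2r, the receptor for ectodysplasin A2, missed the threshold (0.70, SE 0.22, adjusted p = 0.164). The C/EBP and integrated stress list had 1 call of 19, Slc3a2, a subunit of amino acid transporters, which rose by 0.81 (SE 0.17, adjusted p = 0.00757). Among 29 interferon response genes Ifitm3 alone was called, and the list median was 0.07. Its relatives outside the list, Ifitm1 and Ifitm2, rose by 1.22 (SE 0.27) and 1.09 (SE 0.20), and these close copies may share reads.

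**Figure D3:**
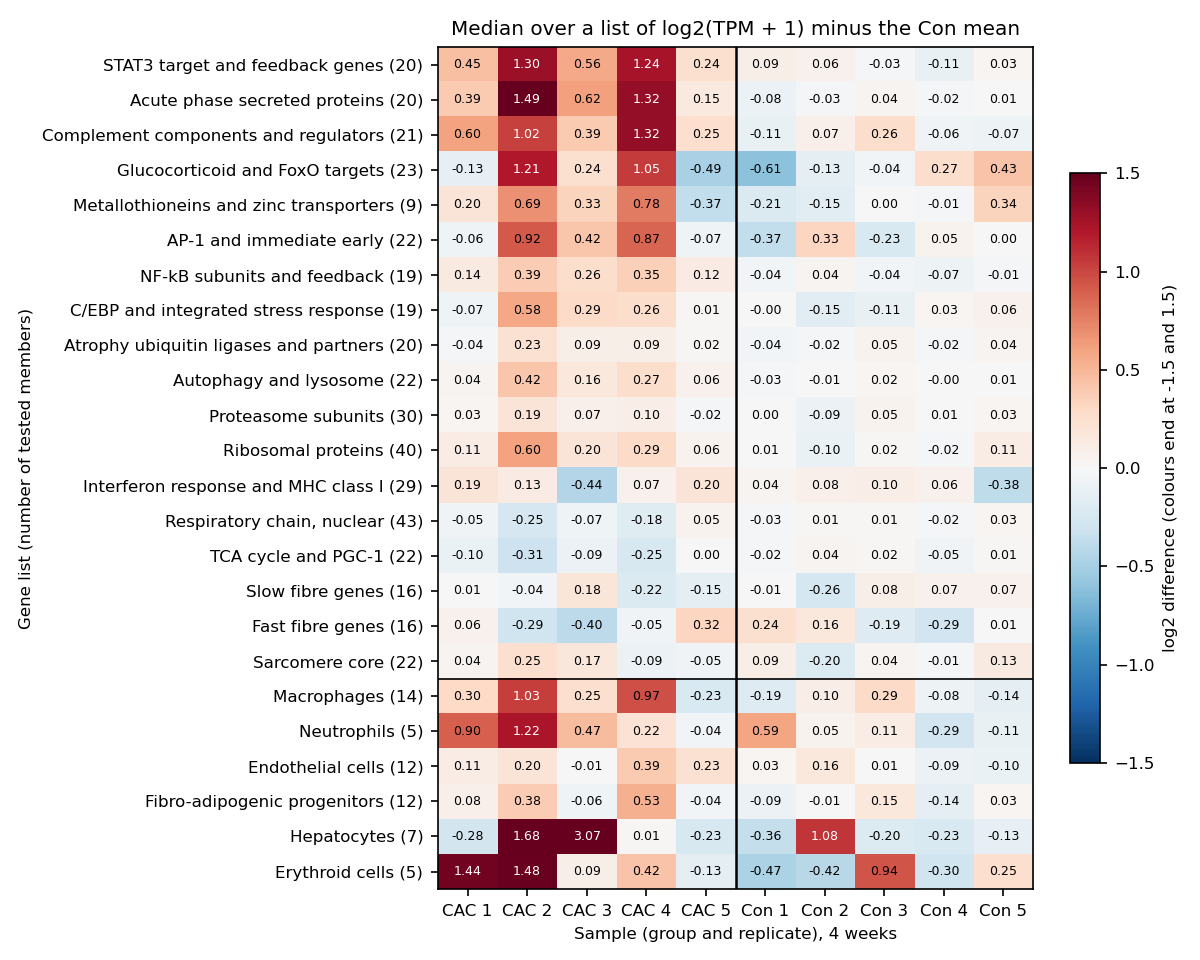
Median over the tested members of a gene list of log2(TPM + 1) minus the Con mean, for each CAC sample (left) and Con sample (right) at 4 weeks. Upper rows are pathways, lower rows cell type markers. CAC replicates 2 and 4 reach 1.30 and 1.24 for STAT3 targets and 1.49 and 1.32 for acute phase genes, against 0.24 and 0.15 in CAC replicate 5.

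The glucocorticoid and FoxO programme had no gene past the threshold. Of 23 tested members none passed, and the median difference was 0.40. Over its members the samples had medians of -0.13, 1.21, 0.24, 1.05 and -0.49 in CAC and -0.61, -0.13, -0.04, 0.27 and 0.43 in Con, so CAC replicates 2 and 4 lay above every Con sample and the other 3 CAC samples within the Con range. Fkbp5, a classic glucocorticoid target, had 26.4, 113, 23.96, 97.6 and 10.6 TPM in CAC and 11.0, 5.03, 20.5, 40.5 and 33.3 TPM in Con (1.07, SE 0.51, adjusted p = 0.439). Cebpd, a factor of the acute phase response, had 8.02, 68.5, 31.1, 61.4 and 7.10 TPM in CAC and 4.26, 7.01, 6.69, 18.2 and 36.1 TPM in Con (adjusted p = 0.48). For Foxo1, Foxo3, Klf15 and Sgk1 the differences were 0.11 to 0.22, with adjusted p of 0.708 to 0.949.

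Metallothioneins, which bind zinc, had the same shape. Mt2 had 47.4, 591, 57.4, 529 and 13.0 TPM in CAC and 11.2, 13.1, 15.7, 30.0 and 57.3 TPM in Con, and Mt1 had 76.4, 549.9, 101, 526 and 37.6 TPM in CAC and 34.1, 46.2, 61.7, 58.7 and 96.4 TPM in Con. CAC replicates 2 and 4 were several times above all other samples and CAC replicate 5 was within the Con range. Neither passed, with adjusted p of 0.129 (Mt2) and 0.245 (Mt1), and none of the 9 tested genes of the list did. Both passed without CAC replicate 5 (adjusted p = 0.00875 for Mt2 and 0.0361 for Mt1) and without week 8 (0.0294 for Mt2 and 0.0485 for Mt1). Slc39a14, the zinc importer ZIP14, had 6.602, 49.8, 12.2, 62.6 and 4.88 TPM in CAC and 4.51 to 12.6 TPM in Con (adjusted p = 0.206).

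None of 20 atrophy ligases and partners passed, and their median was 0.05, near that of all genes. Trim63 had 156, 294, 184, 266 and 157 TPM in CAC and 139.7, 197, 131, 135 and 144 TPM in Con (0.47, SE 0.37, adjusted p = 0.688). Fbxo32 had 148 to 246 TPM in CAC and 127 to 188 TPM in Con (0.22, SE 0.33, adjusted p = 0.862). Both overlapped between the groups, with CAC replicates 2 and 4 highest. Fbxo30, the ligase MUSA1, differed by -0.03 (SE 0.16). The highest and lowest members were Fbxo31 at 0.87 (adjusted p = 0.237) and Asb2 at -0.40 (adjusted p = 0.552). Proteasome subunits (30 genes, median 0.09) and autophagy and lysosome genes (22 genes, median 0.20) had no calls either. A p above the threshold does not show that these genes were equal, and the SE of Fbxo32 exceeds its difference.

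The lists of fibre type, sarcomere, respiratory chain, TCA cycle and ribosomal protein genes held no call. The median difference was -0.01 over 16 slow fibre genes, -0.04 over 16 fast fibre genes and 0.07 over 22 sarcomere genes. Myh7 and Myh2, a slow and a fast myosin heavy chain, differed by -0.03 (SE 0.30) and -0.16 (SE 0.39). Myh4, the fastest myosin, had 159 TPM in CAC replicate 4 and 12.3 to 22.4 TPM in the other CAC samples, against 16.9 to 25.2 TPM in Con. Mstn, myostatin, which limits muscle growth, stood at 0.075 to 1.73 TPM in CAC and 0.227 to 0.671 TPM in Con, and the growth factor gene Igf1 differed by 0.13 (SE 0.26). All 40 tested ribosomal protein genes had differences of 0.16 to 0.45, above the median of all genes, and none passed.

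Transcripts of the mitochondrial genome took 37.9, 31.1, 34.7, 36.1 and 37.5% of the TPM in CAC and 38.0, 41.2, 37.5, 38.7 and 36.5% in Con. CAC replicate 2 was the lowest of the 10, and the groups overlapped. The difference of -2.90 percentage points did not pass a two-sided exact permutation test (p = 0.0714, n = 5 in each group, smallest possible p 0.00794). All 13 of these transcripts had negative differences, with a median of -0.13 and none past the threshold. Nuclear respiratory chain genes (43, median -0.10) and TCA cycle and PGC-1 genes (22, median -0.16) had no calls. Ppargc1a, the coactivator PGC-1alpha, stood at 40.9 TPM in CAC replicate 3 and at 8.41 to 10.4 TPM in the other CAC samples, against 8.17 to 15.1 TPM in Con.

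The 5 genes lower in CAC included neighbours on chromosome 5, the beta crystallin genes Cryba4 (112246493 to 112252518) and Crybb1 (112255815 to 112269585), best known as structural proteins of the eye lens. Of the 7 tested crystallin genes these 2 were lower and none higher. Cryba4 had 3.17, 1.77, 5.46, 4.41 and 4.15 TPM in CAC and 8.51, 6.05, 6.89, 5.75 and 8.41 TPM in Con. Crybb1 had 2.27, 0.947, 3.73, 2.34 and 4.35 TPM in CAC and 5.63, 4.74, 5.08, 4.95 and 5.69 TPM in Con. In both genes every CAC sample was below every Con sample, as in 4 of the 5 lower genes and 132 of all tested genes (0.976%). The other 3 were Wdyhv1, an amidase (-0.43, SE 0.10), and at low levels Ogdhl, an enzyme related to oxoglutarate dehydrogenase (-0.59), and the transcript 9030619P08Rik (-1.03). None of the 5 passed in all 10 fits that leave out a sample, and none without CAC replicates 2 and 4.

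Tumour-bearing mice without cachexia did not show these changes at the threshold. NCAC against Con had 0 genes past it by limma (0%) and 55 at an unadjusted p under 0.05. Stat3 had 23.2, 21.8, 20.5, 22.3 and 20.7 TPM in NCAC (0.05 against Con, SE 0.13), and Socs3 had 4.18, 3.50, 3.15, 2.57 and 2.48 TPM (0.32, SE 0.34). Both genes overlapped with Con and lay below every CAC sample. CAC against NCAC, which shares the CAC samples with the comparison above, had 190 higher genes (1.4%) and 10 lower (0.0739%). Stat3 differed by 1.18 (adjusted p = 4.61e-08) and Socs3 by 2.40 (adjusted p = 1.5e-05) in it. Mt2, which missed the threshold against Con, passed against NCAC (2.55, adjusted p = 0.039). Tceal7 was lower in CAC than in NCAC (-1.33, adjusted p = 0.0063), and its difference from Con was -0.59 (adjusted p = 0.45). Cryba4 was lower in CAC than in NCAC as well (-0.84, adjusted p = 0.0097), while Crybb1 did not pass (-0.57, adjusted p = 0.12).

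Against the neighbouring time points, the 4-week difference lay between a near-silent week 2 and a broad response at week 6. CAC against Con had 1 gene past the threshold at 2 weeks, Stat3, and 435 at an unadjusted p under 0.05. At 6 weeks there were 2941 higher genes (21.7%) and 328 lower (2.42%). Of the 79 genes higher at 4 weeks, 78 had a positive difference at 2 weeks, all 79 passed at 6 weeks, and 71 had a larger difference at 6 than at 4 weeks. These counts are to be read beside all tested genes, which leaned the same way. Their median was 0.065 at 2 weeks and 0.095 for the 6-week minus the 4-week difference. The samples of the 3 weeks are separate, though their fit shares 1 spread per gene. The test of the change itself passed in no gene: 0 for week 4 against week 2 (231 at an unadjusted p under 0.05) and 0 for week 6 against week 4 (819 unadjusted, 747 of them upwards). Of the 79 higher genes, 12 had an unadjusted p under 0.05 between weeks 6 and 4.

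For single genes the differences from Con are given by week, with no call between weeks. Whether genes differed in their course was not tested. Stat3 stood at 0.72 (SE 0.13), 1.23 (SE 0.13) and 1.42 (SE 0.13) at 2, 4 and 6 weeks. Socs3 stood at 0.98, 2.73 and 2.93 (SE 0.34 each), so most of its 6-week difference was present at 4 weeks. Serpina3n stood at 1.11, 2.74 and 4.82 (SE 0.58 each) and Mt2 at 0.66, 2.25 and 4.95 (SE 0.68 each). Their values at 4 weeks were below those at 6 weeks, but the change did not pass. Ccl8 had 0.92, 2.82 and 2.79 (SE 0.57 each). Btg2 had -0.18, 1.03 and 0.74 (SE 0.25 each), with the largest value at 4 weeks but no call between weeks. Cryba4 had -0.06, -0.80 and -0.39 (SE 0.19 each), and it did not pass at 6 weeks (adjusted p = 0.12).

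**Figure D4:**
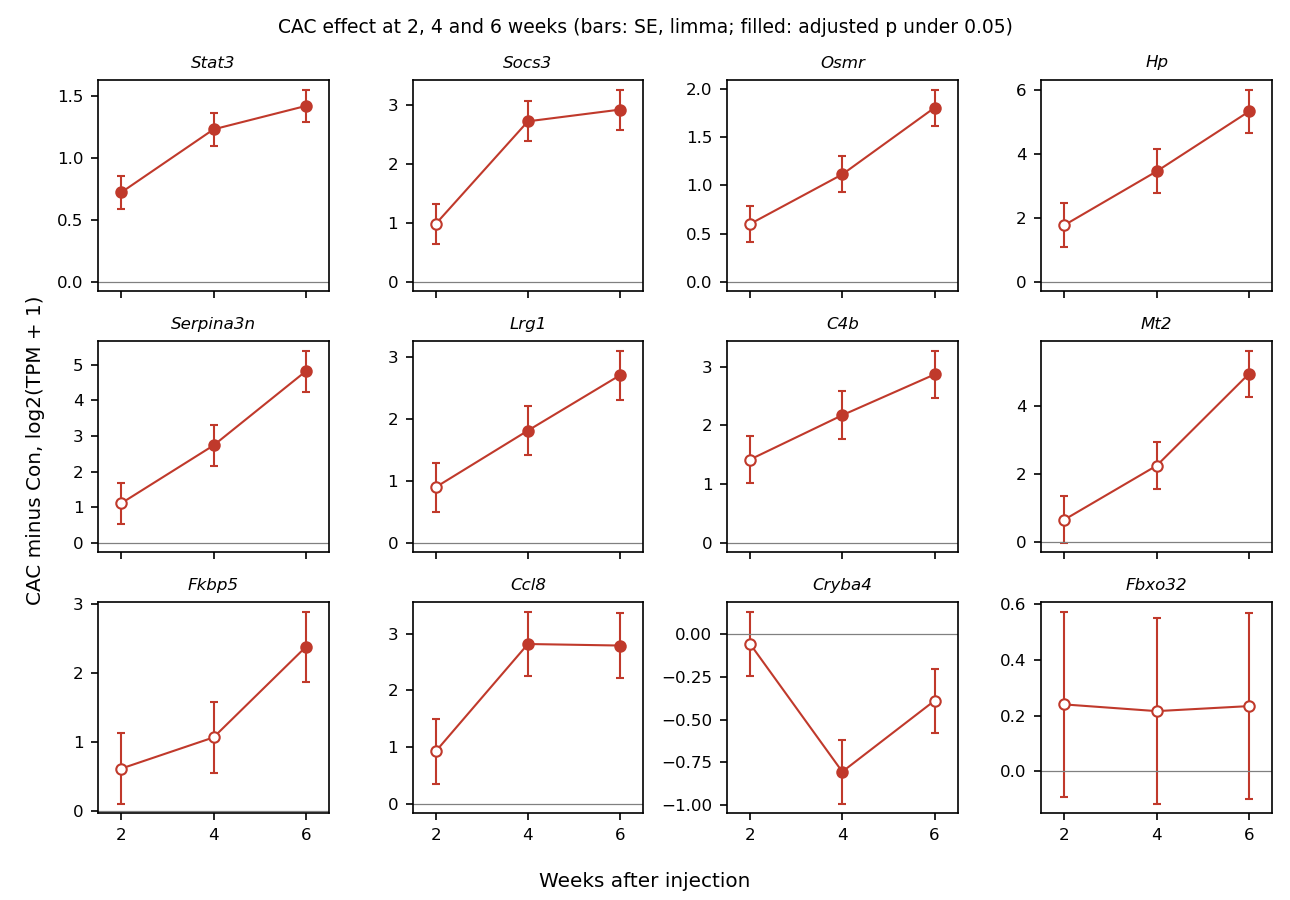
Difference of mean log2(TPM + 1), CAC minus Con, at 2, 4 and 6 weeks after injection for 12 genes, with bars for the SE of limma and filled points for an adjusted p under 0.05. Stat3 is filled at all 3 weeks, Mt2 and Fkbp5 only at 6 weeks, Cryba4 only at 4 weeks and Fbxo32 at none.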

How the data were processed

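The authors deposited one table of TPM for 47643 genes in 62 samples, of which the TPM of 10 samples carry the comparison. Per the submitters' processing notes the genome build was mm10, while the sources used here name no aligner or quantifier. Since TPM sum to the same total in every sample, depth, counting intervals and count tests were not available. The 13529 genes that reached 1 TPM in 5 or more samples were tested on log2(TPM + 1) with limma 3.58.1 in R 4.3.3 (a trended variance prior, 12 groups in 1 fit) and Benjamini-Hochberg adjustment over all of them, at a threshold of 0.05. The fit shares its spread over all groups. The mitochondrial share was compared by an exact permutation test. The procedure was tested on simulated data. Promoters are RefSeq windows (GRCm38.p6), and gene positions are from GENCODE M21.

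Genes were named by rule: the 25 largest rises and up to 10 largest falls past the threshold with a group mean of at least 5 TPM and a proper symbol, up to 6 called members of each of the 50 gene lists, the largest changes of the other comparisons, a panel named whatever its result, and the extremes of a described list. Any other gene was chosen after its values were seen. The members and lists were chosen with earlier results of these data known. Alternatives were another pseudocount, no filter, rescaling, sample weights, other sets of groups, a replicate block and leaving out samples. The values of 1 gene are not reported here.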

Additional observations from a re-analysis of the deposited data

Results flagged for a closer look

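For 164 sets of 5 samples of CAC or Con at 4 weeks, 8 had 1 sample far from the other 4, where chance alone gives about 1 in 20. CAC replicate 4 was the highest of its group for Clu, clusterin, at 87.68 TPM (the other CAC samples 38.35 to 52.45). It was also the highest for Fst, follistatin, which blocks myostatin and activin, at 21.03 TPM (8.528 to 11.29). For the fast myosin Myh4 it stood at 159.3 TPM (12.27 to 22.37), and for the summed Schwann cell markers at 349.1 TPM (114.8 to 131.3). CAC replicate 3 was the highest for Ppargc1a, at 40.85 TPM (8.413 to 10.44). In Con, replicate 2 was the highest for Trim63 at 197.2 TPM (131 to 144.1), and replicate 1 for the summed pigment cell markers at 11.81 TPM (8.663 to 9.502). Con replicate 5 was the lowest for Itih4 at 0.03218 TPM (0.1391 to 0.1682). Clu and Itih4 are called genes.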

How the results depend on the processing

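The counts of genes past the threshold differed strongly with the samples that were fitted. CAC against Con gave 79 higher and 5 lower genes, and 235 and 22 with sample quality weights, 399 and 63 without week 8, 122 and 18 with week 4 only, and 19 and 2 with the 2 groups alone. Without CAC replicates 2 and 4 it gave 5 and 0 genes. All 79 and all 5 calls were kept without week 8. A pseudocount of 0.1 gave 109 and 6, no filter 73 and 11 (86.9% higher against 94% of the calls), and median-of-ratios rescaling 76 and 10. Leaving out 1 sample gave 26 to 185 higher and 0 to 14 lower genes, and the totals of both were 27 when CAC replicate 4 was left out, 30 for CAC replicate 2 and 199 for CAC replicate 5. CAC against NCAC (200 genes) gave 133 with no filter, 888 with weights, 1277 without week 8, 790 with week 4 only, 27 with the 2 groups alone, 10 without CAC replicates 2 and 4, and 40 to 568 with 1 sample left out. Rescaling gave 100 higher and 36 lower there (73.5% higher against 95%). NCAC against Con gave 1 gene with week 4 only. The change between weeks 6 and 4 passed in 905 genes with weights and 20 without CAC replicates 2 and 4, and that between weeks 4 and 2 in 0 to 1 with 1 sample left out. The mitochondrial share difference ran from -3.502 to -1.799 percentage points with 1 sample left out, and without CAC replicate 1 its exact permutation p was 0.0397. Among named genes that missed the threshold, Mt1, Mt2 and Lcn2 passed without week 8 and without CAC replicate 5, and Eda2r with weights. The causes were not tested.

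With a replicate block, CAC against Con gave 0 higher and 0 lower genes (1760 at an unadjusted p under 0.05, smallest adjusted p 0.158, limma), CAC against NCAC 34, and the mitochondrial share an exact p of 0.188. The deviations of CAC and Con samples with the same number correlated at 0.2183, -0.1908, -0.08837, 0.1635 and -0.3915. Only replicate 1 correlated best with its own number. The labels name no pairing, and whether the numbers mark one cannot be told from these values.

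Some differences, none past the threshold, changed sign. With weights Il6ra was -0.126, Foxo1 -0.107, Sgk1 -0.117, Pdk4 -0.028 and Myh7 0.001. Without CAC replicates 2 and 4, Il6ra was -0.467, Cebpb -0.074, Fbxo32 -0.037, Klf15 -0.058, Foxo1 -0.335, Foxo3 -0.116, Sgk1 -0.459, Pdk4 -0.348, Myh7 0.008, Myh2 0.006, Myh4 -0.185, Mstn -0.096 and Igf1 -0.040. With 1 sample left out, Fbxo30 ran from -0.104 to 0.040, Foxo1 from -0.054 to 0.296, Il6ra from -0.070 to 0.469, Mstn from -0.104 to 0.231, Myh4 from -0.228 to 0.671, Myh7 from -0.111 to 0.036, Pdk4 from -0.078 to 0.410, Ppargc1a from -0.091 to 0.447 and Sgk1 from -0.203 to 0.400.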

Other observations

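Circadian clock genes gave no call among 18 tested, with a median difference of 0.17. They varied within the groups, with sample medians of -0.06 to 0.32 in CAC and -0.25 to 0.23 in Con. Arntl, chosen after its values were seen, had 3.42, 5.35, 2.77, 4.12 and 13.2 TPM in CAC. In Con it had 22.0, 20.2, 3.20, 2.83 and 2.81 TPM. Heat shock genes had a median of 0.11 over 23 tested genes, and collagen and matrix genes 0.00 over 26, neither with a call. Of 35 gene lists, 12 held a call and 23 held none, and 33 of all 50 lists had a median above that of all tested genes. At 6 weeks, 12 of 23 glucocorticoid and FoxO targets, 18 of 30 proteasome subunits and 19 of 40 ribosomal protein genes were higher in CAC than in Con, against 21.7% of all tested genes. At that week 10 of 43 nuclear respiratory chain genes were lower, against 2.42% of all tested genes.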
